A study of Mus musculus with 12 samples.

Results

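Abdominal fat of mice given 2 gene-directed short hairpin RNA (shRNA) adenoviruses together was compared with that of mice given control virus alone. The members are the 3 arrays labelled Lipocalin13 + TSC22D4 shRNA (replicates 13, 14 and 16, the combined group) and the 3 arrays labelled NC shRNA (replicates 1, 2 and 3, the control group), chosen by these labels, 6 of 12 arrays in all. All 12 mice were BKS.Cg-Dock7m +/+ Leprdb/J animals aged 12 weeks, a strain that is obese and diabetic through loss of the leptin receptor. The virus dose of control mice was 4e9 plaque-forming units, all of it control shRNA virus. Combined mice received 2e9 of LCN13 shRNA virus and 2e9 of TSC22D4 shRNA virus, and no control virus. The other groups, used below for comparison alone, received 2e9 of 1 gene-directed virus and 2e9 of control virus, so that every mouse received 4e9 in all. Tissue was frozen 1 week after injection. Each group held 7 animals, of which 3 described as representative were put on arrays, so the arrays are not a random draw. The control arrays carry the genotype entry WT although their strain is the Leprdb strain, and the labels do not say which tissues the virus reached. Because the combined group lacks control virus, the presence of the gene-directed viruses and the absence of the control virus cannot be told apart in this comparison.

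Cells that sense viral nucleic acid release type I interferon, which signals through its receptor, Jak kinases, STAT proteins and IRF9 to switch on a large set of antiviral genes. Many of these genes carry a short sequence in their promoters, the interferon-stimulated response element (ISRE), and IRF7, itself induced by interferon, amplifies the response. White fat stores triglyceride in adipocytes and also holds resident macrophages, lymphocytes, vessels and fibroblasts, all of which can respond to interferon. The lipocalin LCN13 is secreted into the blood, and TSC22D4 belongs to a family of leucine zipper proteins.

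The values are log2 levels after robust multi-array averaging (RMA), and 23185 probe sets, each naming a different gene, were tested. They ran from 5.62 to 14.4 with a median of 6.31, so levels under about 6.5 are dim and differences there are compressed. Pearson correlations across genes were 0.994 to 0.997 for pairs within the control or the combined group and 0.993 to 0.994 for pairs across them. Defining adipocyte genes were bright in all 6 arrays, with Lep at 13.90 to 14.01 and Fabp4 at 13.94 to 14.08, the tissue of the label. Red blood cell markers were higher in all 3 combined arrays, and clock genes split the arrays within both groups; their values are given with the marker lists. In bulk tissue, fewer cells of a type and less RNA per cell cannot be told apart.

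The targeted genes did not separate the groups in this tissue. Tsc22d4 stood at 7.60, 7.57 and 7.88 in the control arrays and at 7.59, 7.64 and 7.59 in the combined arrays, so the groups overlapped (limma adjusted p = 0.888). Obp2a, the current symbol of Lcn13, lay between 5.71 and 5.74 in all 6 arrays, at the lower end of the scale, where no loss could be seen. Neither gene therefore checks the labels here.

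The promoters of 7 genes that fell are shown because each holds ISRE letters, which most genes that fell lack in this window; they were picked for the match and do not stand for all genes that fell. Each is the 120 bases before the RefSeq start of the gene (GRCm38.p6), 5′ to 3′ on the gene's strand, and capitals mark matches to the ISRE letters on either strand, which are GAAA, 2 bases of any kind and GAAA again. They lie at chr5:120887614-120887733 (minus strand, Oas1g), chr5:120907526-120907645 (minus, Oas1a), chr5:120777660-120777779 (minus, Oas3), chr19:34640769-34640888 (plus, Ifit1), chr1:173599273-173599392 (minus, Ifi213), chr8:61927967-61928086 (plus, Ddx60) and chr11:48871421-48871540 (minus, Irgm1).
Oas1g: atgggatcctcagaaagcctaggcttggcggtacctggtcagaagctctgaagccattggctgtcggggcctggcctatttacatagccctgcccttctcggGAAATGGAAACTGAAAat
Oas1a: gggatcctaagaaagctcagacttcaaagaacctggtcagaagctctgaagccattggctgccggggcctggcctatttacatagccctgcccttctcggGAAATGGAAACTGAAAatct
Oas3: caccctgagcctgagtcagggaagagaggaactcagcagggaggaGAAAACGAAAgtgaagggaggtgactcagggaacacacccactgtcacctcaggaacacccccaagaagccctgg
Ifit1: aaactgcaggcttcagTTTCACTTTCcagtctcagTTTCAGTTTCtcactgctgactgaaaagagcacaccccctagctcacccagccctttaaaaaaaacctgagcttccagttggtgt
Ifi213: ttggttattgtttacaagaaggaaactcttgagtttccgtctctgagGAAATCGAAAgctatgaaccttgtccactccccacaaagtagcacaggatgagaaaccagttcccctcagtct
Ddx60: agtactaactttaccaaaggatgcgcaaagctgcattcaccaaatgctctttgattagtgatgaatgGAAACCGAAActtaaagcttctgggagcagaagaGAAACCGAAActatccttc
Irgm1: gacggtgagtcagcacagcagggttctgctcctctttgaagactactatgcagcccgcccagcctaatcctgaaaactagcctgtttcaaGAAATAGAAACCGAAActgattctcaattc
Ifit1 reads the motif on the opposite strand, and the other 6 on the gene's own strand. Oas1g, Oas1a and Irgm1 each hold 2 overlapping matches, Ifit1 and Ddx60 hold 2 separate ones, and Oas3 and Ifi213 hold 1. The 250-base windows of the neighbouring genes Oas1g and Oas1a were 82.8% identical, and their matches ended 3 and 5 bases before the start.

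Over the whole comparison, 311 of 23185 genes passed the test (limma, two-sided, Benjamini-Hochberg adjusted p under 0.05, called below), which is 1.34% of genes. The count ranged from 165 to 376 when 1 array was left out, with 165 without combined replicate 13 and 199 without combined replicate 14. Of these, 238 genes (1.03%) were lower and 73 genes (0.315%) were higher in the combined group. The decreases were larger than the increases: 87 genes (0.375%) were called at least 2-fold lower and 0 were called at least 2-fold higher, and the median called change was -0.75 among the lower and 0.27 among the higher genes. All genes together had a median change of 0.0015. All 3 combined arrays lay below all 3 control arrays in 7.22% of genes and above them in 7.72%, which is the background for the counts of non-overlapping genes below.

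Genes of the interferon response made up much of the decrease. Of 169 measured genes in 11 lists of such genes, 98 fell and 0 rose, against 1.03% of all genes that fell, and their median change was -0.68. In 117 of the 169 the combined arrays all lay below the control arrays. These 98 were 41.2% of the genes that fell, and 62 of the 87 genes with a decrease of at least 2-fold belonged to these lists. The lists were drawn up knowing that interferon genes were low in these arrays, so the counts describe the extent of the decrease across families.

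**Figure D1:**
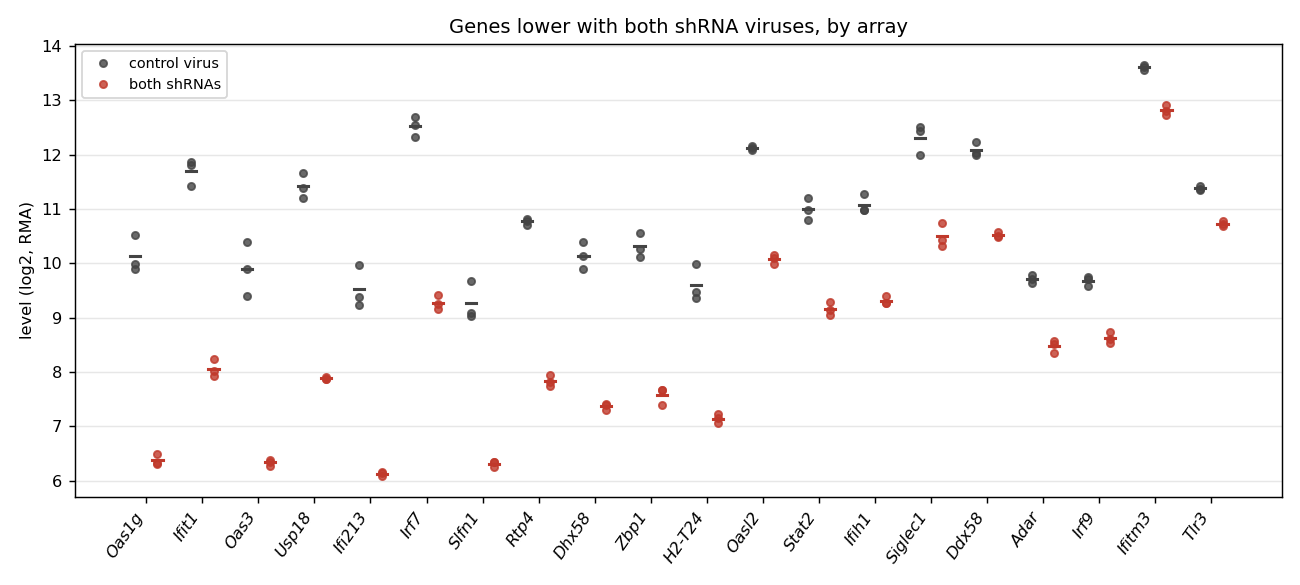
Levels of 20 genes that fell, in log2 units, with 1 point per array and a bar at the mean of the 3 arrays, for control virus (grey) and both shRNAs (red). In all 20 genes the red points lie below all grey points, from Oas1g (10.14 against 6.38 on average) to Tlr3 (11.39 against 10.73).

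Sensors of foreign nucleic acid were lower with both viruses. Of 14 measured, 8 fell and 0 rose, with a median change of -0.94. Ddx58 (RIG-I, a sensor of viral RNA) stood at 12.00, 12.24 and 12.04 in the control arrays and at 10.51, 10.57 and 10.49 in the combined arrays. The 2 groups were far apart and the arrays within each close together, and the change was -1.57 (SE 0.06, limma adjusted p = 1.72e-06), 2.97-fold. Ifih1 (MDA5), a second RNA sensor, fell from 10.99, 11.28 and 10.98 to 9.27, 9.40 and 9.27, a 3.41-fold change. Dhx58 (LGP2), which tunes these sensors, stood at 9.89, 10.40 and 10.14 against 7.30, 7.39 and 7.40, and its change of -2.78 (SE 0.13) was the largest of the list. Zbp1, a sensor of Z-form nucleic acid that can start cell death, fell 6.64-fold. Eif2ak2 (PKR), the RNA-dependent kinase that halts translation, fell 2.90-fold, and Adar, which edits double-stranded RNA, fell 2.34-fold. Tlr3, an endosomal receptor for double-stranded RNA, changed less: its control arrays at 11.35 to 11.43 lay above combined arrays at 10.69 to 10.78 (-0.66, SE 0.05, limma adjusted p = 0.000101). Tlr7, an endosomal receptor for single-stranded RNA, was lower in all 3 combined arrays, at 10.44 to 10.65 against 10.83 to 11.42, but was not called (limma adjusted p = 0.152). Sting1, the adaptor of the DNA-sensing route, behaved likewise at 9.35 to 9.55 against 9.86 to 10.18 (limma adjusted p = 0.0612).

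The oligoadenylate synthetases, which make the signal that activates the RNA-cutting enzyme RNase L, held the largest decrease of all called genes. Of 12 measured members of this list 7 fell and 0 rose, with a median change of -1.69. Oas1g stood at 9.90, 10.53 and 9.98 in the control arrays and at 6.31, 6.5 and 6.33 in the combined arrays. The combined arrays were near the floor of the scale, and the change was -3.76 (SE 0.17, limma adjusted p = 3.43e-06), 13.6-fold. Oas3 went from 9.40, 10.40 and 9.90 to 6.28, 6.35 and 6.38, again near the floor, an 11.8-fold change. Oas2 kept a clear signal while it fell 5.78-fold, with combined arrays at 9.22, 9.55 and 9.02 against control arrays at 11.73, 12.01 and 11.64. Oasl1 fell 5.39-fold, Oas1b 4.94-fold and Oasl2 4.13-fold. Oas1a fell 2.52-fold, from 7.04, 7.86 and 7.42 to 6.12, 6.20 and 6.01. Single Oas genes are uncertain because similar copies may share probe signal.

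IFIT proteins, which bind viral RNA and block its translation, and IFITM proteins, which hinder entry of viruses, were measured for 12 genes, of which 4 fell and 0 rose. Ifit1 stood at 11.87, 11.80 and 11.43 in the control arrays and at 7.93, 8.24 and 8.02 in the combined arrays. The lowest control array lay over 3 log2 units above the highest combined array, and the change was -3.64 (SE 0.13, limma adjusted p = 1.72e-06), 12.5-fold. Ifit2 fell 4.86-fold, from 9.47, 9.75 and 9.56 to 7.41, 7.36 and 7.17. Ifitm3, among the brightest genes of the response, fell less, from 13.56, 13.66 and 13.62 to 12.73, 12.92 and 12.80 (1.73-fold). Of the 12 genes, 6 had a dim mean under 6.5.

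The ISG15 system attaches a ubiquitin-like protein to other proteins. Of 5 genes measured, 3 fell, and in all 5 the combined arrays lay below the control arrays. Usp18, which removes ISG15 and damps interferon receptor signalling, stood at 11.38, 11.66 and 11.20 against 7.92, 7.86 and 7.88. The change of -3.53 (SE 0.15, limma adjusted p = 3.08e-06) was 11.5-fold, with little spread among the combined arrays. Herc6, the ligase of the system in mice, fell 3.63-fold and Uba7, its activating enzyme, fell 2.04-fold. Isg15 itself was dim, at 6.06, 6.29 and 6.08 against 5.91, 5.87 and 5.79, and was not called (limma adjusted p = 0.0508).

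Among transcription factors of the response, 3 of 14 measured genes fell and 0 rose, and the list's median was -0.05. Irf7, the interferon-induced amplifier, stood at 12.33, 12.69 and 12.55 in the control arrays and at 9.43, 9.25 and 9.15 in the combined arrays. It changed by -3.25 (SE 0.13, limma adjusted p = 1.94e-06), 9.5-fold. Stat2 fell 3.57-fold, from 10.98, 11.21 and 10.80 to 9.29, 9.14 and 9.05. Irf9, the DNA-binding partner of the STAT proteins, fell 2.08-fold, from 9.76, 9.71 and 9.58 to 8.62, 8.73 and 8.53. Irf1, which also responds to interferon gamma, overlapped between the groups at 8.47 to 8.97 against 8.44 to 8.60 (limma adjusted p = 0.395). The interferons, their receptors and the Jak kinases did not pass the test: of 26 measured genes 0 were called, with changes from -0.18 to 0.10. Of these 26, 13 had a dim mean under 6.5, so a change in them might not be visible on these arrays.

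Antiviral effector genes were the list with the most decreases. Of 37 measured, 33 fell and 0 rose, and in 34 the combined arrays lay below all control arrays, with a median change of -1.25. Rtp4, an interferon-induced regulator of the response, stood at 10.78, 10.82 and 10.71 against 7.75, 7.82 and 7.95. Its groups were narrow and far apart (-2.93, SE 0.10, limma adjusted p = 1.72e-06). Mx2, a GTPase that traps viral components, went from 8.42, 8.74 and 7.87 to 6.06, 6.02 and 6.06, at the floor, and Mx1 from 7.42, 8.19 and 7.22 to 5.81, 5.87 and 5.88. Cmpk2, a mitochondrial nucleotide kinase, fell 4.93-fold, and Ddx60, a helicase linked to RNA sensing, fell 3.50-fold. Bst2 (tetherin), which holds budding virus at the cell surface, fell 2.09-fold and was just above the dim range in the combined arrays, at 6.53 to 6.54. Ifi27 went the other way without passing the test, at 11.36 to 11.86 against 11.71 to 11.83 (limma adjusted p = 0.595).

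Families that lie in clusters on one chromosome fell in several members at once. In the Ifi200 family of DNA-binding proteins 8 of 10 measured genes fell, with a median of -0.82. Ifi213 stood at 9.39, 9.97 and 9.24 against 6.08, 6.15 and 6.16 (10.6-fold), and Ifi204 at 10.83, 11.21 and 10.93 against 9.48, 9.62 and 9.27 (2.89-fold). Ifi205 overlapped between the groups, at 12.07 to 12.20 against 11.79 to 12.29. In the Schlafen family, which restrains growth and virus production, 7 of 10 fell, with a median of -1.01. Slfn1 went from 9.09, 9.68 and 9.04 to 6.25, 6.34 and 6.34 (7.77-fold). Slfn5, the brightest member named here, fell from 11.63, 11.76 and 11.50 to 10.86, 10.99 and 11.01 (1.6-fold). Of the 87 genes lower by at least 2-fold, 16 (18.4%) lie on chromosome 11, 10 (11.5%) on chromosome 5 and 8 (9.20%) on chromosome 1, whereas these chromosomes carry 7.42%, 5.65% and 5.54% of the genes tested. On chromosome 5, 7 of the 10 were Oas genes, and the other 3 were Cxcl10, Dck and Plac8. Copies within these families may share probe signal.

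Trim proteins linked to antiviral defence, which are mostly ubiquitin ligases, fell in 10 of 13 measured members, and in all 13 the combined arrays lay below the control arrays. Trim30a stood at 10.51, 10.67 and 10.61 against 8.58, 8.56 and 8.21 (-2.14, SE 0.18, limma adjusted p = 0.000283). Trim25, the ligase that activates RIG-I, fell 1.59-fold, from 10.62, 10.85 and 10.73 to 9.97, 10.09 and 10.12. Interferon-inducible GTPases, which attack vacuoles around intracellular microbes and respond strongly to interferon gamma, fell in 5 of 15 members, with a median of -0.51. Irgm1 went from 9.13, 9.25 and 8.87 to 8.04, 8.04 and 7.69 (2.23-fold) and Ifi47 from 9.83, 10.24 and 9.92 to 8.79, 8.67 and 8.69 (2.43-fold). Gbp7 did not overlap between the groups, at 9.55 to 10.19 against 9.27 to 9.33, yet was not called (limma adjusted p = 0.0974).

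Genes of antigen presentation by class I molecules were lower in part. Of 27 measured, 10 fell and 0 rose, with a median of -0.34. H2-T24, a non-classical class I gene, stood at 9.48, 9.98 and 9.36 against 7.15, 7.22 and 7.06, and its 5.51-fold change was the largest of the list. H2-T23, which encodes the ligand Qa-1, fell 2.50-fold. Tap1, a subunit of the pump that loads peptides into the endoplasmic reticulum, went from 10.43, 10.43 and 10.30 to 9.72, 9.45 and 9.44 (1.81-fold). Tapbp (tapasin), which links that pump to class I molecules, fell from 11.83 to 11.95 down to 11.37 to 11.49 (1.37-fold). Nlrc5, the transcriptional activator of class I genes, fell 1.93-fold, with control arrays at 9.21 to 9.28 and combined arrays at 8.16 to 8.48. The immunoproteasome subunit Psmb9 was not called, at 8.82 to 9.38 against 8.26 to 8.29 (limma adjusted p = 0.093).

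**Figure D2:**
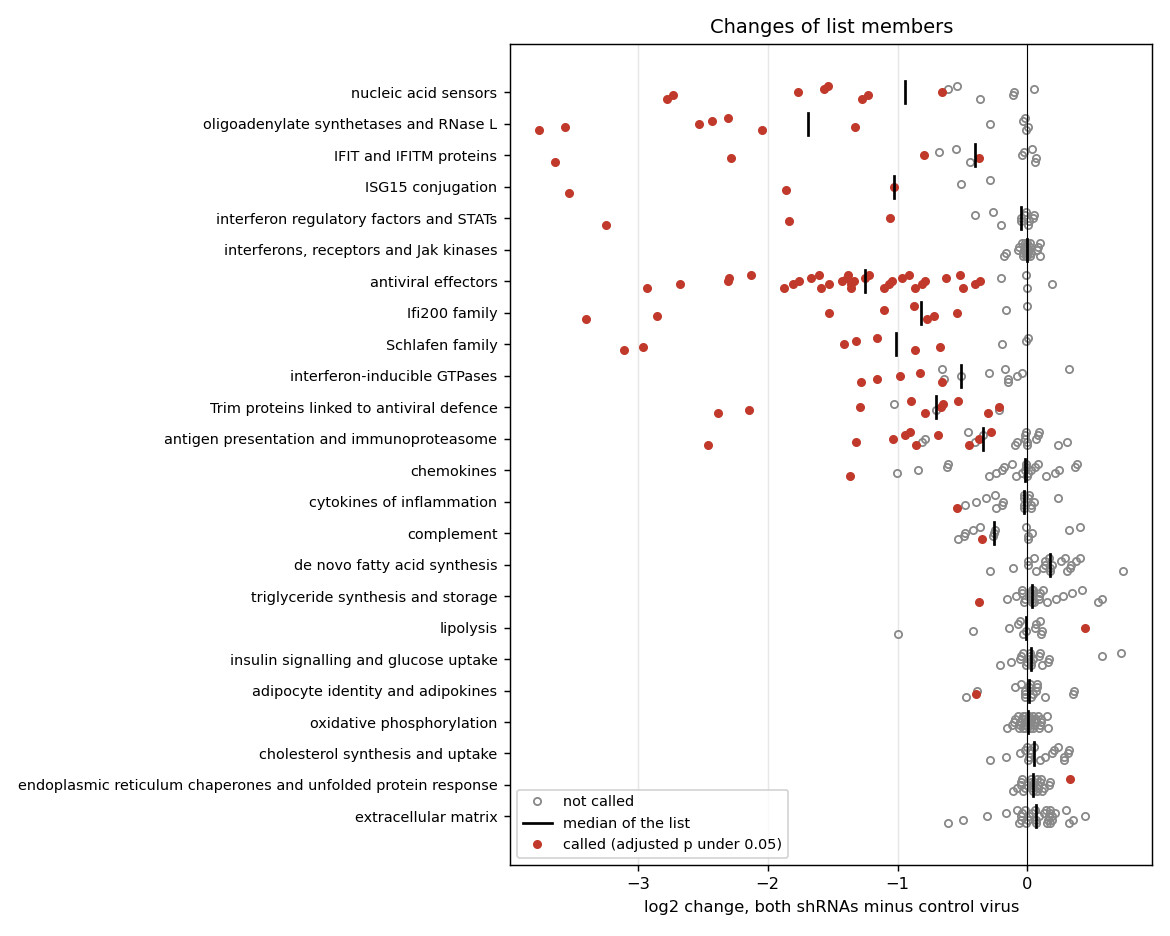
Log2 change (both shRNAs minus control virus) of each measured member of 24 gene lists, with called members in red, other members as open circles and a black line at the list's median. Decreases gather in the interferon-response lists, with 33 of 37 antiviral effectors called lower, while 0 of 36 oxidative phosphorylation genes and 0 of 26 interferon, receptor and Jak genes were called.

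The ISRE letters were commoner in the promoters of the genes that fell. Of 17 genes with a promoter window among those at least 4-fold lower, 7 (41.2%) held a match in the 250 bases before the start. The share was 31.9% (22 of 69) for those at least 2-fold lower, 14.5% (18 of 124) for those called lower by less and 1.82% (1 of 55) for those called higher. Of all 17452 tested genes with a window, 594 (3.40%) held one, and 978 (2.98%) of all 32851 RefSeq windows did. The letters TTC, 3 bases of any kind and GAA, which form the core of the element bound by STAT dimers (GAS), were found in 8.70% of the windows of genes at least 2-fold lower and in 7.78% of all tested genes with a window. The endoplasmic reticulum stress element (CCAAT, 9 bases of any kind and CCACG) was found in 0 windows of called genes and in 0.166% of all tested genes with a window. Both strands were searched, overlapping matches were counted once per gene for these shares, and no test was made. Irf7, Ifit2, Cmpk2, Oasl2 and Slfn1 fell without these ISRE letters in the window.

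Outside the interferon lists 140 genes fell, 25 of them by at least 2-fold. Several are genes known from myeloid cells, and whether the genes outside the lists respond to interferon was not tested. Siglec1 (sialoadhesin), a surface receptor of macrophages, stood at 11.99, 12.51 and 12.44 against 10.32, 10.75 and 10.42 (-1.81, SE 0.22, limma adjusted p = 0.00307). Ms4a6b, a membrane protein of immune cells, went from 9.61, 10.18 and 9.77 to 7.96, 8.12 and 7.92 (3.61-fold). Fcgr1, the high-affinity receptor for immunoglobulin G and a marker used for macrophages, stood at 10.51, 11.41 and 11.08 against 8.84, 9.21 and 9.11 (-1.95, limma adjusted p = 0.0023). With the red blood cell markers as a covariate its change was -1.73 and no longer called (limma adjusted p = 0.099). The other macrophage markers did not pass the test: of 18 measured, Fcgr1 alone was called. Most were lower on average all the same: 16 were lower and 2 higher, with a median change of -0.14, whereas 11190 of all 23185 genes were lower. In 3 of the 18 the combined arrays lay below all control arrays, against 7.22% of all genes. The macrophage receptor Adgre1 (F4/80) overlapped, at 11.57 to 11.88 against 11.50 to 11.67 (limma adjusted p = 0.632). The mean deviation of the 18 macrophage markers ran from -0.041 to 0.298 in the control arrays and from -0.134 to -0.012 in the combined arrays, and it overlapped. Its part in the decreases was not tested.

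Few messenger molecules of inflammation were called. All 3 combined arrays lay below all control arrays in 7 of 25 chemokines, 6 of 19 cytokines and 6 of 15 complement genes. That compares with 7.22% of all genes. They lay above all control arrays in 3, 2 and 2 genes, against 7.72% of all genes. The median changes of the 3 lists were small, at -0.02, -0.03 and -0.26. Of 25 measured chemokines 1 fell (Cxcl10), of 19 cytokines 1 fell (Il15) and of 15 complement genes 1 fell (C4b), and 0 rose. These calls were lost when single arrays were left out: Cxcl10 without combined replicate 13 or control replicate 2 (limma adjusted p up to 0.0597), Il15 without any 1 combined array or control replicate 2 or 3 (up to 0.105) and C4b without any 1 control array or TSC22D4 replicate 10 (up to 0.0839). The chemokines Ccl7 and Ccl3, which draw in monocytes and other leukocytes, were lower in all 3 combined arrays without being called. Ccl7 stood at 11.30, 11.55 and 11.15 against 10.34, 10.32 and 10.81 (limma adjusted p = 0.0532), and Ccl3 at 8.90, 9.57 and 9.55 against 8.26, 8.33 and 8.41 (limma adjusted p = 0.076). Ccl2, the main monocyte attractant, overlapped between the groups because combined replicate 16 at 11.70 lay among the control arrays (11.57 to 11.92). Lcn2, an acute phase lipocalin of fat, spread as widely within as between the groups, at 11.33 to 12.66 against 12.08 to 12.83. Immediate early genes had 0 calls among 22, with a median of -0.14. Of the 22, 17 were lower on average and 5 higher. Their combined arrays lay below all control arrays in 5 genes and above them in 1, against 7.22% and 7.72% of all genes.

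The 73 genes that rose did so by small amounts. Of these, 4 rose at least 1.5-fold, and the largest change was 1.86-fold. That gene was Tuba1a, an alpha tubulin of microtubules, at 11.82, 11.49 and 11.46 in the control arrays and 12.44, 12.42 and 12.59 in the combined arrays (0.89, SE 0.14, limma adjusted p = 0.0168). Its call was lost when combined replicate 13, 14 or 16 or control replicate 2 or 3 was left out, with limma adjusted p-values up to 0.0673. Olr1 (LOX-1), a receptor for oxidised lipoprotein, stood at 8.81, 9.01 and 8.77 against 9.56, 9.88 and 9.52, and its call was lost without combined replicate 13 or 14 or control replicate 1 or 3 (limma adjusted p up to 0.0748). Cd209a, a lectin of dendritic cells and some macrophages, stood at 6.79, 6.96 and 6.82 against 7.52, 7.64 and 7.67, and its call was lost without combined replicate 14 or 16 or control replicate 3 (limma adjusted p up to 0.0636). Rasd1, a small GTPase induced by glucocorticoid, rose 1.6-fold, from 9.25 to 9.65 up to 9.94 to 10.40. This call was lost in 10 of 12 fits that each left out 1 array, all but those without control replicate 1 or combined replicate 16 (limma adjusted p up to 0.134).

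Several smaller increases held when any 1 array was left out. Tmem184c, a membrane protein, stood at 11.23, 11.06 and 11.24 against 11.57, 11.60 and 11.59 (0.41, SE 0.04, limma adjusted p = 0.00146). Kank1, which links focal adhesions to microtubules, stood at 8.37, 8.15 and 8.30 against 8.73, 8.70 and 8.64 (0.42). Sdc2 (syndecan 2), a heparan sulphate proteoglycan, and Glce, which modifies heparan sulphate chains, rose by 0.31 and 0.32 (SE 0.04 and 0.05). Zfp148, a zinc finger transcription factor, rose by 0.35 and Taf2, a subunit of the general transcription factor TFIID, by 0.32. With the red blood cell markers as a covariate Tmem184c, Kank1, Zfp148, Sdc2 and Glce lost their calls (limma adjusted p = 0.0649, 0.107, 0.12, 0.12 and 0.231), and with the clock genes as a covariate Glce and Taf2 did (limma adjusted p = 0.0618 and 0.0592). Dnajb9 was called in both of those fits (limma adjusted p = 0.00247 and 0.00618). Dnajb9 (ERdj4) is a co-chaperone of the endoplasmic reticulum. It stood at 10.85, 10.93 and 10.97 against 11.23, 11.29 and 11.22, without overlap. It was the 1 called gene among 25 chaperone and unfolded protein response genes. Others in that list were not called: Sdf2l1 stood at 9.08 to 9.25 against 9.28 to 9.40 (limma adjusted p = 0.17) and Ddit3 (CHOP), a transcription factor of prolonged stress, at 8.94 to 9.08 against 9.12 to 9.24 (limma adjusted p = 0.73).

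**Figure D3:**
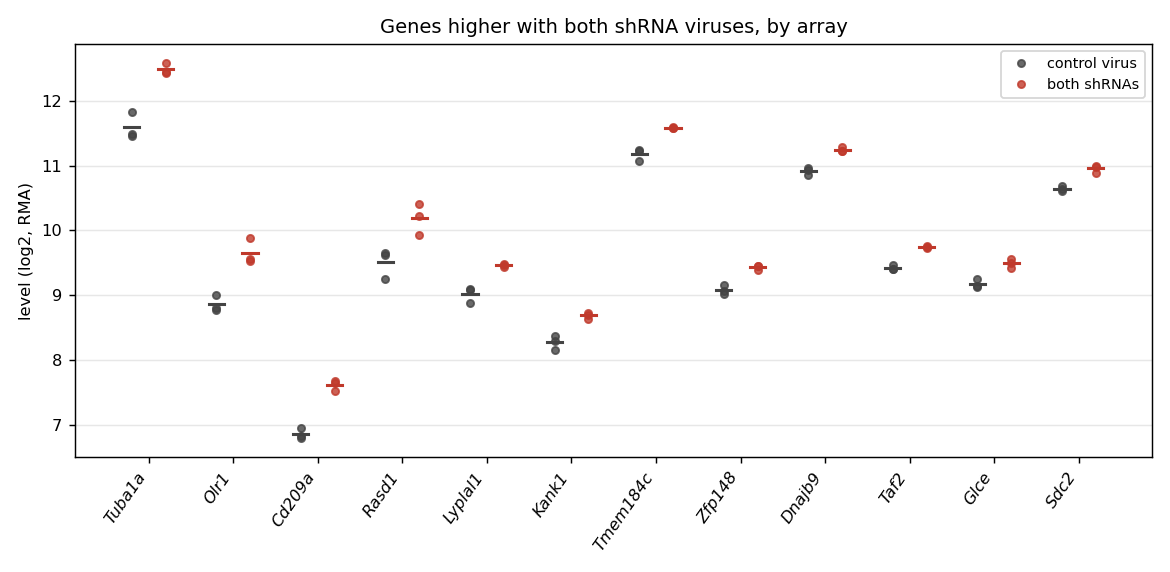
Levels of 12 genes that rose, in log2 units, with 1 point per array and a bar at the mean of the 3 arrays, for control virus (grey) and both shRNAs (red). The red points lie above the grey points in each gene, and the gaps are small beside those of the decreases, the widest being Tuba1a at 11.59 against 12.48 on average.

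Genes of fat metabolism and insulin action largely did not pass the test. De novo fatty acid synthesis had 0 calls among 21 genes, with a median of 0.17. Of the 21, 19 were higher on average and 2 lower, whereas 11989 of all 23185 genes were higher. The combined arrays lay below all control arrays in 1 gene, against 7.22% of all genes. They lay above all control arrays in 7 genes, against 7.72% of all genes. Srebf1, which encodes the lipogenic factor SREBP1, was one of these 7, at 9.78, 9.88 and 9.63 against 10.11, 10.01 and 10.05 (limma adjusted p = 0.146). Elovl6, an elongase of fatty acids, stood at 10.39, 10.04 and 9.38 against 10.73, 10.46 and 10.83 (limma adjusted p = 0.41). Fasn, fatty acid synthase, overlapped at 12.76 to 13.34 against 13.27 to 13.49. Among 27 genes of triglyceride synthesis and storage, 1 fell, Slc27a1 (FATP1), a fatty acid transporter, with a change of -0.37 (limma adjusted p = 0.00169). That call was lost with the red blood cell markers as a covariate (limma adjusted p = 0.0736).

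Insulin signalling and glucose uptake had 0 calls among 20 genes. Irs2, an adaptor of the insulin receptor, was higher in combined replicates 13 and 14 at 9.67 and 10.06, whereas replicate 16 at 9.16 lay within the control range of 8.57 to 9.22 (limma adjusted p = 0.267). Slc2a4 (GLUT4), the insulin-regulated glucose transporter, overlapped at 9.95 to 10.42 against 9.72 to 10.20. Pck1, the glyceroneogenic enzyme, was at 12.21 and 12.25 in combined replicates 13 and 14 and at 11.23 in replicate 16, against 11.06 to 11.72 in the control arrays. Adipocyte identity genes and adipokines had 1 call among 18, Nampt, an enzyme of NAD synthesis, which fell from 10.80 to 11.03 down to 10.47 to 10.59. That call was lost without combined replicate 16 or control replicate 2 (limma adjusted p up to 0.057). Lipolysis had 1 call among 13, Lyplal1, a lysophospholipase-like protein, which rose by 0.44 (limma adjusted p = 0.0417) and lost its call in 10 of 12 fits that each left out 1 array, all but those without LCN13 replicate 8 or TSC22D4 replicate 11 (limma adjusted p up to 0.13). Pnpla2 (ATGL), the first lipase of fat breakdown, differed by -0.14 (limma adjusted p = 0.213). Fatty acid oxidation (17 genes), oxidative phosphorylation (36), glycolysis (21), cholesterol synthesis (19), brown and beige adipocyte genes (15) and extracellular matrix (33) had 0 calls each.

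Arrays differed in 2 respects that cut across or along the groups. Red blood cell markers were higher in the combined arrays: the mean deviation of 9 markers was 0.743, 0.370 and 0.554 in the combined arrays and 0.090, -0.326 and -0.623 in the control arrays, without overlap. Slc4a1, the anion exchanger of red cells, stood at 7.24, 6.93 and 6.32 against 7.99, 8.00 and 7.81, and none of the 9 was called. With that deviation as a covariate, 108 genes were called (9 higher and 99 lower), of which 61 of the 87 genes lower by at least 2-fold remained. Irf7 changed by -3.12 in that fit (limma adjusted p = 0.000246), whereas Tuba1a changed by 0.51 (limma adjusted p = 0.191). Of the other genes given as called and not yet named with this fit, Olr1, Cd209a, Rasd1, Lyplal1, Oas1a, Mx1, Trim25, H2-T23, Nampt, Bst2, Cxcl10, Il15, C4b and Hdc also lost their calls there, with limma adjusted p-values from 0.0517 (Mx1) to 0.549 (Lyplal1).

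Clock genes split the arrays within each group. Dbp, a clock-driven transcription factor, stood at 7.62, 7.74 and 9.33 in the control arrays and at 10.06, 9.79 and 8.09 in the combined arrays. Arntl (BMAL1), which peaks opposite to Dbp, stood at 8.50, 8.45 and 7.57 against 7.02, 7.00 and 8.18. Control replicate 3 and combined replicate 16 thus differed from the other 2 arrays of their groups, and 0 of 18 clock genes were called. With the difference of Dbp and Arntl as a covariate, 182 genes were called, including 75 of the 87. In that fit Olr1, Cd209a, Rasd1, Lyplal1, Nampt, Cxcl10, Il15, C4b and Hdc lost their calls, with limma adjusted p-values from 0.054 (Cd209a) to 0.169 (Lyplal1). The hour of tissue collection is not given in the sources used here, and the part of either measure in the called changes was otherwise not tested. Other marker lists were called in few members: of 20 T and NK cell markers 2 fell (Gzmb and Klrk1, both dim), of 10 dendritic cell markers 1 fell (Bst2) and 1 rose (Cd209a), of 11 mast cell markers 1 fell (Hdc), and adipocytes, B cells, neutrophils, endothelium, fibroblasts, smooth muscle, mesothelium, skeletal muscle, liver, pancreas and nerve had 0 calls each. The Gzmb call was lost without combined replicate 13 or 16 or control replicate 2 (limma adjusted p up to 0.0719) and the Klrk1 call without any 1 combined array or control replicate 2 or 3 (up to 0.0748). Both were lost with the red blood cell covariate (limma adjusted p = 0.0945 and 0.352), and Gzmb also with the clock covariate (0.0835). The Hdc call was lost in 8 of 12 fits without 1 array (limma adjusted p up to 0.121), all but those without LCN13 replicate 5 or 8, TSC22D4 replicate 12 or control replicate 1. Albumin (Alb), a liver transcript, was high in combined replicate 13, at 11.46 against 8.30 and 8.31 in replicates 14 and 16.

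**Figure D4:**
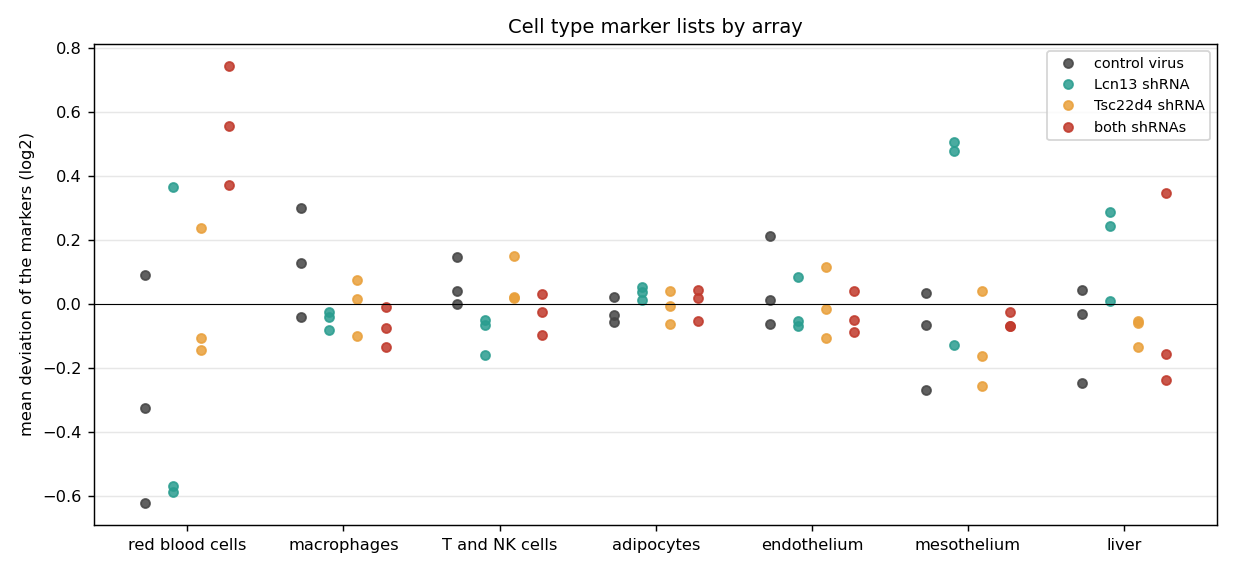
Mean deviation of the markers of 7 cell types from their mean over all 12 arrays, in log2 units, with 1 point per array in the 4 groups. Red blood cell markers lie at 0.370 to 0.743 in the arrays with both shRNAs and at -0.623 to 0.090 in the control arrays, and adipocyte markers lie close to 0 in all arrays.

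Few genes were called between the combined group and either single shRNA group. Against the LCN13 group 2 of 23185 genes (0.00863%) were called, 1 higher and 1 lower (0.00431% each), and 2477 (10.7%) had an unadjusted p under 0.05, close to the 2548 (11%) against control. Dnajb9 was higher by 0.36 (limma adjusted p = 0.0445), with means of 11.25 in the combined and 10.89 in the LCN13 group. Samd9l, an interferon-induced restrictor of translation, was lower by 0.37 on the log2 scale (change -0.37, limma adjusted p = 0.0445), with means of 8.61 and 8.98. The Dnajb9 call was lost in 7 of 12 fits that each left out 1 array (LCN13 replicates 5 and 6, TSC22D4 replicate 11, combined replicates 13, 14 and 16 and control replicate 2), and the Samd9l call in 8 (LCN13 replicates 5 and 6, TSC22D4 replicates 10 and 11, combined replicates 13 and 14 and control replicates 1 and 2), with limma adjusted p-values up to 0.308 in both. The count of called genes depended on single arrays: it was 94 without LCN13 replicate 8, 11 without control replicate 3 and between 0 and 4 without any other 1 array. LCN13 replicates 5 and 6 stood apart in mesothelial markers (mean deviation 0.477 and 0.504, against -0.128 in replicate 8), and without both 0 genes were called. Against the TSC22D4 group limma called 0 genes (0%), with 1602 (6.91%) at an unadjusted p under 0.05. The smallest p-values there belonged to Szrd1, Gabpa, Rtp4, Rab11b and Fam110c, all with a limma adjusted p of 0.366.

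Interferon-response genes were low in the single groups as well. All 3 shRNA groups are set against the same 3 control arrays, so their differences from control share those arrays. Over the 87 genes chosen for a decrease of at least 2-fold in the combined group, the median change from control was -1.53 in the combined, -1.38 in the LCN13 and -1.36 in the TSC22D4 group. The combined mean was below the LCN13 mean in 71 of the 87 and below the TSC22D4 mean in 78. All 3 combined arrays lay below all 3 LCN13 arrays in 34 of the 87, against 9.22% of all genes, and below all 3 TSC22D4 arrays in 34, against 6.76%. The median difference was -0.15 from the LCN13 and -0.19 from the TSC22D4 group, and because the 87 genes were picked on their low combined arrays, that choice itself favours a lower combined mean.

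Means over the 4 groups are given for a few genes. Oas3 averaged 9.90 in the control, 6.40 in the LCN13, 6.42 in the TSC22D4 and 6.34 in the combined group, all but the first near the floor. Ifit2 averaged 9.59, 7.34, 7.31 and 7.31. Irf7 had its lowest mean in the combined group, with 12.52, 10.10, 9.92 and 9.28, but its difference was not called against the LCN13 (-0.82, limma adjusted p = 0.109) or the TSC22D4 group (-0.65, limma adjusted p = 0.366). Rtp4 averaged 10.77, 8.57, 8.56 and 7.84, again with no call against LCN13 (-0.73, limma adjusted p = 0.0928) or TSC22D4 (-0.72, limma adjusted p = 0.366). Irf9 averaged 9.68, 9.06, 8.84 and 8.63. Of the 87 genes, 10 had a dim combined mean under 6.5, and 0 had a dim control mean.

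**Figure D5:**
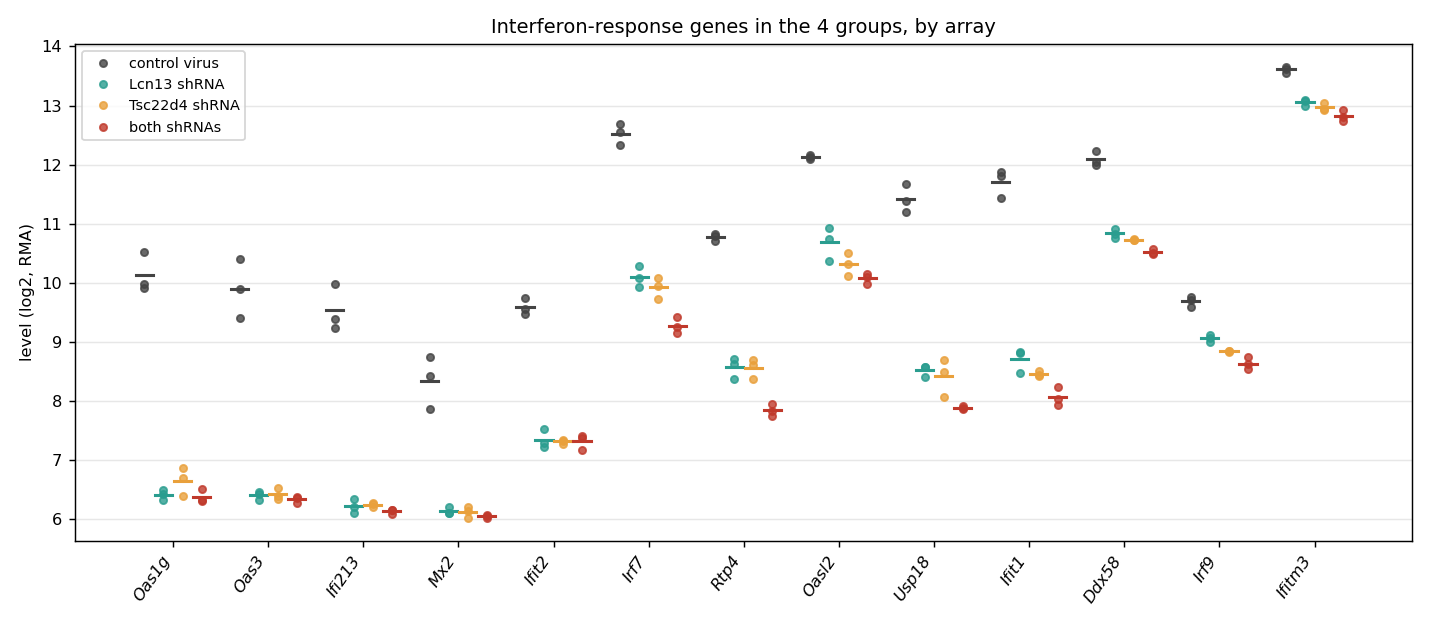
Levels of 13 interferon-response genes in log2 units, with 1 point per array and a bar at each group's mean, for control virus (grey), LCN13 shRNA (green), TSC22D4 shRNA (orange) and both shRNAs (red). All 3 shRNA groups lie below the control group, from means of 6.40, 6.42 and 6.34 against 9.90 in Oas3 to 9.06, 8.84 and 8.63 against 9.68 in Irf9.

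The combined change was smaller than the sum of the single changes for a set of these genes. The test of combined minus LCN13 minus TSC22D4 plus control called 92 genes (0.397%), 85 (0.367%) of them higher than the sum and 7 (0.0302%) lower, and 7.08% of genes had an unadjusted p under 0.05. The count ranged from 47 to 104 when 1 array was left out, with 47 without TSC22D4 replicate 10, 53 without LCN13 replicate 5, 54 without TSC22D4 replicate 11 and 60 without combined replicate 13. Of the 85, 60 were in the interferon-response lists, which hold 169 of the 23185 genes tested. Of the 85, 80 were also called lower against control, against 1.03% of all genes. Both tests use the same 3 control arrays, and high control arrays favour both calls. The overlap of 80 is therefore partly built in and supports nothing. Oas1g differed from the sum by 3.46 (SE 0.23, limma adjusted p = 0.000409), with means of 10.14, 6.41, 6.64 and 6.38 in the control, LCN13, TSC22D4 and combined groups. The sum of its single changes gives a level of 2.92, under the lowest value on the arrays (5.62), so the floor fixed the direction of the departure. The same holds for 23 of the 85 genes. For some of the others the sum gives a level in the dim range under about 6.5, where differences are compressed. Trim30a at 6.15 and Rtp4 at 6.35 are such genes. Irf7, for which the sum gives a level of 7.49, differed from the sum by 1.78 (limma adjusted p = 0.00319). The sum also gives levels above the dim range for Stat2 (7.72), Oasl2 (8.87), Ddx58 (9.47), Ifi203 (9.87) and Tlr3 (10.08). Their combined means were higher than these levels, at 9.16, 10.08, 10.52, 11.18 and 10.73. Of the 7 below the sum, Des (desmin), an intermediate filament protein of muscle cells, averaged 9.25, 9.61, 9.55 and 9.46. Its call was lost in 5 of 12 fits that each left out 1 array (limma adjusted p up to 0.066). The doses of the gene-directed viruses were the same in the single and combined groups, whereas the control virus was given at 2e9 in the single groups and not at all in the combined group, so a dependence on the control virus and one on the second shRNA cannot be told apart.

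Of the 73 genes that rose, 68 had a higher mean than control in the LCN13 group and 70 in the TSC22D4 group, with median changes of 0.14 and 0.15 against 0.27 in the combined group. The 73 were chosen for combined arrays above these same control arrays, so a mean above control in the single groups is favoured by that choice and supports nothing. Tuba1a averaged 11.59 in the control, 11.96 in the LCN13, 12.39 in the TSC22D4 and 12.48 in the combined group. Olr1 averaged 8.86, 8.80, 9.89 and 9.65, with the LCN13 group at the control level.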

How the data were processed

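Biotin-labelled cDNA of total RNA from abdominal fat was hybridised to Affymetrix arrays, per the labels' protocols. The authors deposited 1 log2 value per probe set and array, made with RMA per the submitters' processing notes. In control replicate 1, 7.68% of the values were whole steps at 1024 steps per log2 unit, against 100% in every other array. The reason is not given in the sources used here. Without that array 376 genes were called against control, the most of any fit that left out 1 array. The sources used here do not give the version and settings of RMA, the probe set definitions or the genome build. The sorted values of any 2 arrays differed by no more than 0.00188, a shared distribution, which removes any change common to most genes. The table held 25206 probe sets, of which 23185 named 1 gene each, 0 named several and 2021 had no symbol; all 23185 gene IDs were found in a RefSeq table (GRCm38.p6), which also gave the promoter windows.

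Genes were tested with lmFit, contrasts.fit and eBayes of limma 3.58.1 (R 4.3.3) over all 12 arrays with 1 mean per group and no covariate, with 8 residual and 1.38 prior degrees of freedom and a median residual SD of 0.0647. A gene was called at a two-sided p under 0.05 after Benjamini-Hochberg adjustment over all genes of a comparison, and the script was tested on simulated data. The labels describe separate animals. The number of arrays limits the precision.

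Gene lists (52, with 826 measured genes) and all rules were chosen with earlier results of these data known, so lists are described by counts and medians without a test. Named genes were the 30 largest called changes in each direction without overlap, up to 8 called and 3 other members per list, the targeted genes and fixed readouts, and the 10 largest in other comparisons. Genes named only for their chromosome (Dck and Plac8) were chosen after their values were seen. Probe-sharing families (Oas, Ifi200, Slfn, Trim30) are uncertain by member. Alternatives were array weights, cyclic loess, trended and robust eBayes, only the arrays of the 2 groups, brighter probe sets, a minimum change (treat), leaving out each array, and, added after seeing the data, covariates for red blood cell markers and clock genes and leaving out both LCN13 arrays high in mesothelial markers.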

Additional observations from a re-analysis of the deposited data

Results flagged for a closer look

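The change with both viruses departed from the sum of the changes with either virus in 92 genes by limma's test of that difference. The 10 largest departures above the sum, on the log2 scale, were in interferon-response genes: 3.46 in Oas1g, 3.42 in Oas3, 3.21 in Ifi213, 2.86 in Ifi209, 2.61 in Ifit1, 2.54 in Slfn1, 2.37 in Usp18, 2.33 in Trim30d, 2.30 in Trim30a and 2.25 in Ifit2. In 9 of these 10, all but Trim30a, the sum of the single changes gives a level under the lowest value on the arrays (5.62). The floor therefore fixed the direction of these departures, as it did for 23 of the 85 genes above the sum, but not their full size. The combined means of Ifit1, Usp18, Trim30d, Ifit2 and Ifi209 were 8.06, 7.89, 7.33, 7.31 and 6.96, above the dim range. Those of Oas1g, Oas3, Slfn1 and Ifi213 were 6.38, 6.34, 6.31 and 6.13, within it. No order is read from the sizes. For Trim30a the sum gives 6.15, in the dim range under about 6.5, where differences are compressed. The 7 departures below the sum were -0.61 in Mrto4, -0.60 in Podxl, -0.47 in Rab11b, -0.45 in Des, -0.40 in Plec, -0.38 in Eif5a and -0.30 in Mrps2. The Des call was lost without LCN13 replicate 5 or 6, TSC22D4 replicate 10 or 11 or control replicate 2 (limma adjusted p up to 0.066). The Rab11b call was lost without LCN13 replicate 5, TSC22D4 replicate 10 or combined replicate 13 or 14 (limma adjusted p up to 0.0526). In all 7 genes both single groups had higher means than the control group. High single groups and low control arrays favour a call below the sum, so this pattern is partly built in and supports nothing.

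In 2 genes the combined group differed from the LCN13 group by limma's test, Dnajb9 by 0.36 and Samd9l by -0.37. These calls were lost in 7 and 8 of 12 fits that each left out 1 array, with limma adjusted p-values up to 0.308.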

How the results depend on the processing

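No paired analysis was possible because the groups share no replicate numbers. Against control, array weights gave 518 called genes (177 higher), the clock covariate 182 (29 higher, 153 lower), the red blood cell covariate 108 (9 higher, 99 lower), only the arrays of the 2 groups 126 (20 higher, 106 lower), treat at a minimum log2 change of 0.2 gave 123 (0 higher, 123 lower), and a fold of at least 1.5 gave 148 (4 higher, 144 lower). Leaving out 1 array gave 165 to 376 in all, 22 to 104 higher and 143 to 295 lower. The lowest values were without combined replicate 13; 157 were lower without combined replicate 16; 40 were higher without combined replicate 14 or control replicate 2, and 44 without TSC22D4 replicate 10. Against LCN13, the 2 calls became 14 with array weights, 8 with cyclic loess, 8 with trended and robust eBayes, 7 among brighter probe sets, 1 with the clock covariate, 0 with the red blood cell covariate, 0 with only the arrays of the 2 groups and 0 without both LCN13 arrays high in mesothelial markers, and 0 to 94 without 1 array. Against TSC22D4 the range without 1 array was 0 to 4. The departures from the sum numbered 35 without both those LCN13 arrays and 47 to 104 without 1 array. The causes were not tested. Of the 67 called genes whose values are given, 54 kept their call in all 12 fits without 1 array. Of the 87 genes lower by at least 2-fold, 60 remained called with only the arrays of the 2 groups. Signs turned in genes that were not called: Lcn2 (-0.093 without control replicate 1, up to 0.571 without control replicate 3), Tsc22d4 (0.0246 without control replicate 3, down to -0.130 without control replicate 2), Alb (-0.56 without combined replicate 13, up to 1.02 without combined replicate 14, and -0.30 with the clock covariate), Elovl6 (-0.0928) and Obp2a (0.0006) with the red blood cell covariate, and Dbp (-0.0858) with the clock covariate. Dbp is itself part of the clock covariate, so its value in that fit is no check. Levels near the floor limit what can be seen of further decreases.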
